A study of Mus musculus with 8 samples.

Results

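The expression of 8 genes of the pigment cell programme was compared between cultures of sacral neural crest from mouse embryos that were wild type or homozygous for Sox10 Dom: Dct, Pmel, Slc45a2, Mlph, Mreg, Kitl, Bloc1s1 and Dtnbp1. They were chosen by gene symbol, as probe sets that the platform annotation pairs with 1 of these symbols, and all 8 had a single such probe set among the 6855 genes tested. The wild-type group and the homozygous Dom group each held 4 Affymetrix Mouse Gene 1.0 ST arrays, numbered as replicates 1 to 4. Dom is a spontaneous frameshift allele of Sox10, and the animals carry it in all cells. The sacral neural tube, caudal to somite 24, was taken from embryos at embryonic day 9.5 and kept for 24 hours in medium with 10% fetal bovine serum. RNA came from the cells that had crawled out, after the explant itself was removed. The sources used here do not say whether replicates came from separate embryos or pools, and the p-values therefore rest on the spread among these arrays, part of which may be technical.

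Melanocytes arise from the neural crest. Their precursors, the melanoblasts, depend on the transcription factors SOX10 and MITF and on Kit ligand, which neighbouring cells make and which the receptor KIT on melanoblasts binds. Pigment is made in melanosomes, organelles related to lysosomes: PMEL builds the fibrils on which melanin is laid down, tyrosinase and its relatives such as DCT make the melanin, SLC45A2 helps to set the conditions inside the organelle, and sorting complexes such as BLOC-1 deliver the cargo. Melanophilin, encoded by Mlph, ties mature melanosomes to the actin motor myosin Va through RAB27A, and melanoregulin, encoded by Mreg, acts in their transport and transfer. Dct is among the earliest markers of melanoblasts, and SOX10 is known to act on its promoter.

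The bases before the start of 3 of the genes are shown because the promoter of Dct is where SOX10 and MITF are known to act, and because Mreg and Bloc1s1 give, for comparison, a gene whose Dom/Dom arrays all lay below wild type and a gene whose genotypes overlapped. They are the 250 bases before the annotated transcript start, on the gene's strand, from RefSeq (GRCm38.p6). Of the 8 genes, 6 had an entry; Pmel and Slc45a2 had none. Capitals mark CATGTG and CACGTG, forms of the E-box that MITF binds, and ACAAAG and ACAATG, forms of the core that SOX proteins bind. Each was searched on both strands, so a motif on the other strand stands in capitals as its reverse complement. Dct lies on the minus strand at chr14:118052247-118052496, Mreg on the minus strand at chr1:72212315-72212564 and Bloc1s1 on the minus strand at chr10:128923525-128923774.
Dct: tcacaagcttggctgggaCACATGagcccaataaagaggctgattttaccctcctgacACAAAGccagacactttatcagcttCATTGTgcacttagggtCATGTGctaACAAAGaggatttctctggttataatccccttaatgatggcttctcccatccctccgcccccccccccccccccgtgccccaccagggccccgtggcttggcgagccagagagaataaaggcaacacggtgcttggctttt
Mreg: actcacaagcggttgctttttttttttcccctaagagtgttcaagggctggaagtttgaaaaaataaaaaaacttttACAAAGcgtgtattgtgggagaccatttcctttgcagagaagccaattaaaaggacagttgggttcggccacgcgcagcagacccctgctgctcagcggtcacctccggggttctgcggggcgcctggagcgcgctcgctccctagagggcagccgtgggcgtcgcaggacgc
Bloc1s1: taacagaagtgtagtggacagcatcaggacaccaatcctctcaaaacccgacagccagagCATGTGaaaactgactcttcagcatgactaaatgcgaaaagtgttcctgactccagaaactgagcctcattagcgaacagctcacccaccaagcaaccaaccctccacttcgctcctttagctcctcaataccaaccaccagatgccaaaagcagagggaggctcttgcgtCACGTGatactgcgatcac

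The Dct sequence held 2 copies of CATGTG, 2 of ACAAAG and 1 of ACAATG. The CATGTG that begins 150 bases before the start is followed, after 3 other bases, by an ACAAAG that begins 141 bases before it; the other pair begins at 232 and 192 bases. Among 27025 windows of the same length, 1 for each gene of the table, 12.2% held CATGTG, 16.5% ACAAAG, 11% ACAATG and 6.05% CACGTG. Both CATGTG and ACAAAG occurred in 2.15%, and at least 2 of each in 0.0407%, which is 11 windows. At least 2 of each is what the Dct window itself holds, and no other combination of repeated motifs was counted. Its rarity is therefore a description and no test. The Mreg window held a single ACAAAG, 173 bases before the start, and the Bloc1s1 window 1 CATGTG and 1 CACGTG. The Mlph window, whose annotated start lies 76 bases inside the gene, held 1 CACGTG. None of the 4 motifs was found in the windows of Kitl, whose start lies 206 bases inside the gene, or Dtnbp1. The motifs describe the letters only, and no binding was measured.

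Of the 8 genes, 2 fell in Dom/Dom cultures, Dct by 5.77-fold and Pmel by 3.59-fold, 0 rose and 6 did not pass the threshold; with the replicate number as a block 3 fell, as Mlph was added. The threshold was a limma p of 0.05 after Benjamini-Hochberg adjustment over all 6855 genes. Over all genes tested 0.481% passed, 0.408% in the downward direction and 0.0729% in the upward. All values are log2 expression as deposited, and a difference is Dom/Dom minus wild type. The median difference of the 8 genes was -0.35, beside -0.001 over all genes. In 4 of the 8, Dct, Pmel, Mlph and Mreg, all Dom/Dom arrays lay below all wild-type arrays, as they did in 2.6% of all genes. The other 4 genes overlapped between genotypes. RNA came from whole cultures, in which fewer cells of the pigment or glial lineage cannot be told apart from less RNA of these genes per cell. The values carry no detection calls, so whether Dct and Pmel were above background in Dom/Dom could not be assessed. The array medians over all probe sets ran from 8.60 to 8.78. Below them lay the Dom/Dom means of Dct (8.32), Pmel (8.36) and Mlph (8.51), and the means of Slc45a2 in both genotypes (7.95 and 7.95). RMA, the summary behind the values, compresses differences of dim probe sets, and the folds are those of the deposited values.

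**Figure D1:**
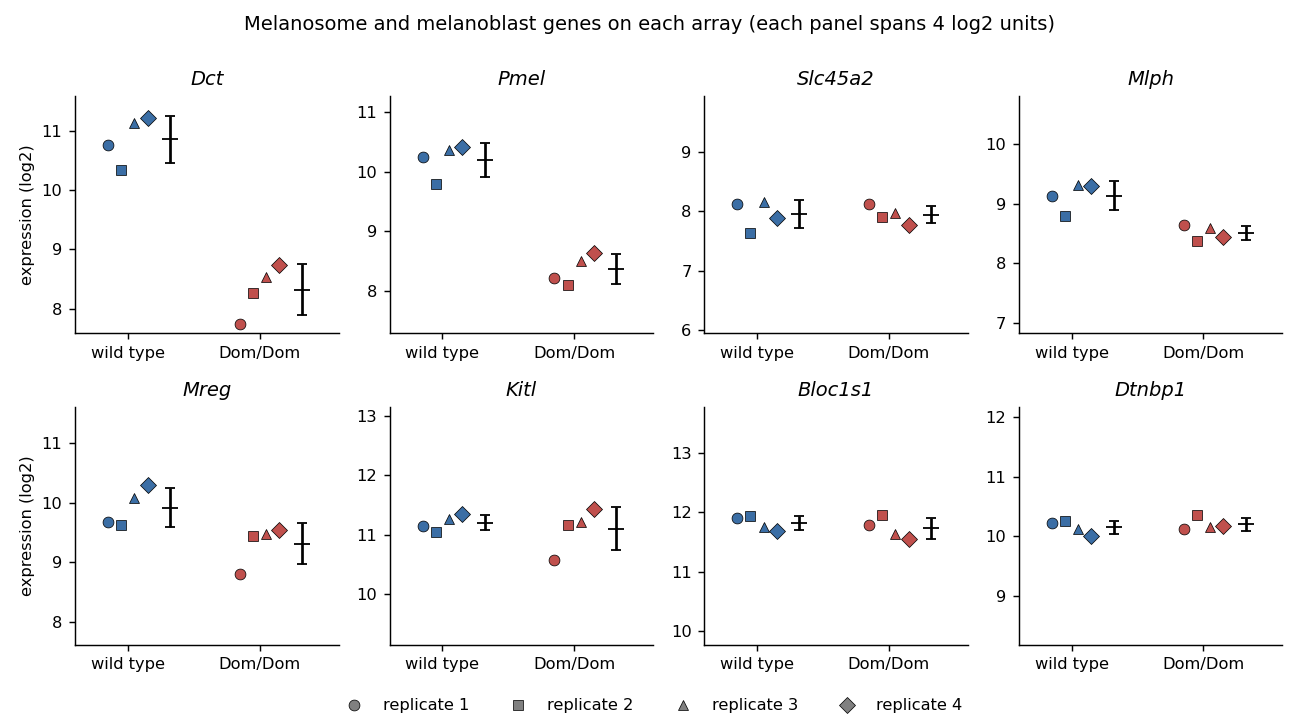
Expression of each gene on the y axis (log2) by genotype on the x axis; symbols are the 4 arrays of a genotype, shaped by replicate number, and the bar is the mean with its SD. Each panel spans 4 log2 units, so panels can be compared for distance but not for level. Dct and Pmel are separated by 1.59 and 1.16 log2 units between the highest Dom/Dom and the lowest wild-type array, Mlph and Mreg by 0.15 and 0.08, and the other 4 genes overlap.

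Dct encodes dopachrome tautomerase, an enzyme of melanin synthesis (probe set 10422249, chromosome 14). Its level was 7.75, 8.27, 8.54 and 8.74 in Dom/Dom replicates 1 to 4, and 10.76, 10.33, 11.12 and 11.21 in wild-type replicates 1 to 4. The Dom/Dom arrays were all low, and the highest of them lay 1.59 log2 units below the lowest wild-type array. The means were 8.32 ± 0.43 and 10.85 ± 0.40 (SD, n = 4), and the difference of -2.53 had a 95% interval from -3.04 to -2.01 (limma adjusted p = 0.00152). Only 1 of the 6855 genes tested, the cadherin Cdh19, had a more negative difference. By pairs of same-numbered arrays the difference was -3.01, -2.06, -2.58 and -2.46, and the smallest of these in size was that of replicate 2, whose wild-type array had the lowest wild-type level. The call held with the replicate block and in the other alternatives, 17 in all, with adjusted p up to 0.0377.

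Pmel encodes the protein of melanosome fibrils (probe set 10367379, chromosome 10). The Dom/Dom arrays gave 8.22, 8.09, 8.50 and 8.63, and the wild-type arrays 10.25, 9.79, 10.36 and 10.42. Again no Dom/Dom array reached the lowest wild-type one. The means were 8.36 ± 0.25 and 10.20 ± 0.29 (SD, n = 4), a difference of -1.84 (95% interval -2.19 to -1.49, limma adjusted p = 0.00152) that ranked 5 of 6855 from the most negative. The difference was much alike in all pairs, at -2.02, -1.70, -1.86 and -1.79, with an SD of 0.14, against 0.39 for Dct. Pmel passed in all 17 alternatives, with adjusted p up to 0.0377. The intervals of Dct and Pmel overlap, and whether one fell by more than the other was not tested.

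Slc45a2 encodes a transporter of the melanosome membrane (probe set 10423098, chromosome 15). Its level was 8.12, 7.91, 7.97 and 7.77 on the Dom/Dom arrays, against 8.12, 7.64, 8.15 and 7.89 on those of wild type. The arrays of both genotypes were intermixed. The difference was -0.004, with a 95% interval from -0.28 to 0.27 (limma adjusted p = 1.00), so a fall as large as that of Dct or Pmel lies outside its interval. Whether Slc45a2 was above background in either genotype could not be assessed.

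Mlph and Mreg, the genes of melanosome transport, were lower in Dom/Dom in 4 of 4 pairs, as were 10.7% of all genes. Mlph (probe set 10348471, chromosome 1) read 8.64, 8.37, 8.59 and 8.44 in the mutant and 9.13, 8.79, 9.31 and 9.30 in wild type. The groups did not overlap, but the gap of 0.15 was under the wild-type SD of 0.24. The difference was -0.62 (95% interval -0.90 to -0.35) and missed the threshold (limma adjusted p = 0.0662), while with the replicate block it passed (adjusted p = 0.0221), beside 1.05% of all genes that were called lower in that fit. The pairs differed by -0.50, -0.42, -0.73 and -0.85. Without wild-type replicate 2, which had the lowest wild-type level, the adjusted p was 0.0122, and without any other single array it lay between 0.0691 and 0.245.

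Mreg (probe set 10355456, chromosome 1) read 8.80, 9.45, 9.48 and 9.54 in the mutant and 9.68, 9.62, 10.08 and 10.30 in wild type. Replicate 1 was far below the other Dom/Dom arrays, and the 2 groups were separated by 0.08, less than the SD of 0.35 and 0.33 within them. The difference was -0.60 (95% interval -1.03 to -0.18) and did not pass (limma adjusted p = 0.385; 0.0646 with the replicate block). By pairs it was -0.88, -0.17, -0.60 and -0.77. The mean over pairs 1 and 2 was -0.53 and that over pairs 3 and 4 was -0.68; for Mlph these means were -0.46 and -0.79.

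**Figure D2:**
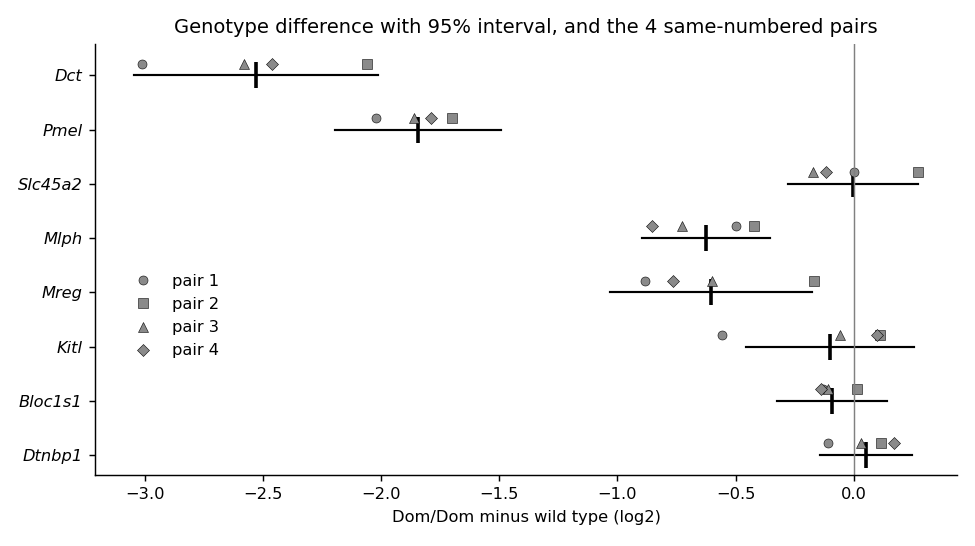
Difference between genotypes on the x axis (Dom/Dom minus wild type, log2) for the 8 genes; the vertical tick and line are the estimate and its 95% interval from limma, and the grey symbols are the 4 differences between same-numbered arrays. Dct (-2.53) and Pmel (-1.84) stand apart from Mlph (-0.62) and Mreg (-0.60), and the remaining 4 intervals include 0.

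Kitl encodes Kit ligand, the survival and migration signal of melanoblasts, which they receive rather than make (probe set 10366052, chromosome 10). Mutant arrays gave 10.58, 11.17, 11.21 and 11.44, and wild-type arrays 11.14, 11.05, 11.27 and 11.34. Dom/Dom replicate 1 was the lowest array and Dom/Dom replicate 4 the highest, so the wild-type arrays lay within the Dom/Dom range. The difference was -0.10 (95% interval -0.46 to 0.25, limma adjusted p = 1.00). Without Dom/Dom replicate 1 it was 0.07, also not past the threshold (adjusted p = 0.924). The pair of replicate 1 differed by -0.56 and the other 3 pairs by 0.11, -0.06 and 0.10.

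Bloc1s1 and Dtnbp1 encode subunits of BLOC-1, a complex that sorts cargo to melanosomes and to other organelles related to lysosomes, and which most cells have. Bloc1s1 (probe set 10373594, chromosome 10) was 11.78, 11.95, 11.64 and 11.55 in the mutant and 11.91, 11.94, 11.75 and 11.68 in wild type. The difference was -0.09 (95% interval -0.32 to 0.14, limma adjusted p = 1.00). Dtnbp1, the gene of dysbindin (probe set 10408915, chromosome 13), stood at 10.12, 10.36, 10.16 and 10.18 against 10.23, 10.25, 10.13 and 10.00. Its difference of 0.05 had a 95% interval from -0.14 to 0.25 (limma adjusted p = 1.00), and the sign turned when the arrays were centred on their medians (-0.009). Both genes overlapped between genotypes, and their intervals exclude the estimates of Dct, Pmel, Mlph and Mreg. The interval of Mreg (-1.03 to -0.18) overlaps that of Bloc1s1, and differences between genes were not tested.

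An exact two-sided permutation test over the 8 arrays gave p = 0.0286 for each of Dct, Pmel, Mlph and Mreg, the smallest that 4 against 4 arrays allow. Every gene whose groups do not overlap reaches this value, and the test takes no account of the replicate numbers. For Slc45a2, Kitl, Bloc1s1 and Dtnbp1 the same exact permutation test gave p = 1.00, 0.743, 0.429 and 0.543.

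**Figure D3:**
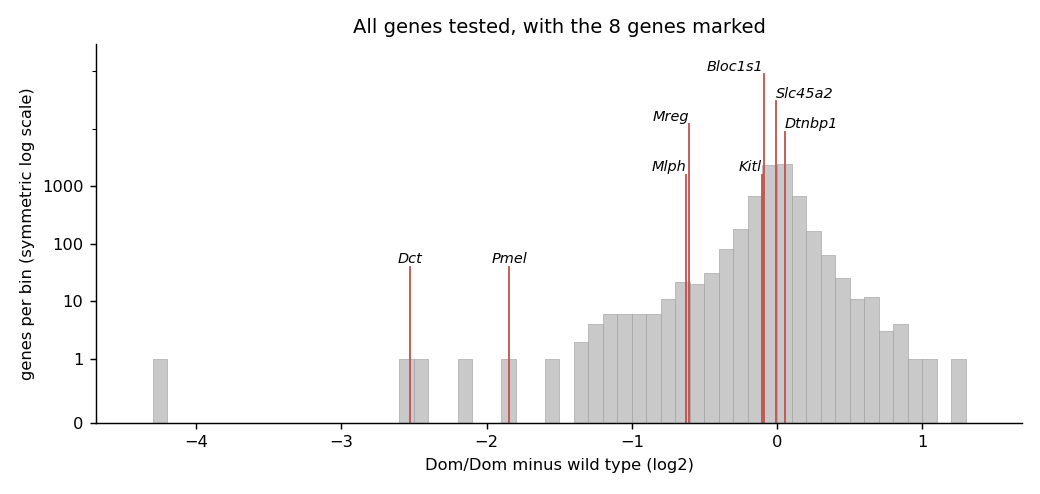
Number of genes per bin of 0.1 log2 units (y axis, symmetric log scale) by the difference between genotypes (x axis, Dom/Dom minus wild type, log2), over the 6855 genes tested; red lines mark the 8 genes. Dct and Pmel lie in the sparse left tail, at ranks 2 and 5 from the most negative, Mlph and Mreg at ranks 64 and 68, and the other 4 within the central peak.

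The 8 genes were set beside the other measured genes of the same pathway. In 4 lists, on melanin and melanosome matrix, on transport and biogenesis, on melanoblast signals and on melanoblast transcription factors, 80 genes were listed, of which 38 were measured, the 8 genes included. Of the 38, 3 fell (Dct, Pmel and Sox10), 0 rose and 35 did not pass, where 0.408% of all genes tested were called lower. Dct and Pmel belong to the 8 genes and Sox10 is the mutated gene, so no further pathway gene passed. The median difference was -0.08, beside -0.001 over all genes. Some of the 35, Slc45a2 and Tspan10 among them, lay below the array medians in both genotypes. With the replicate block 6 fell, as Mlph, Tfap2a and Tbx2 were added, beside 1.05% of all genes called lower in that fit. Tyr, Tyrp1, Mlana, Mitf, Kit and Rab27a were among the listed genes not analysed here.

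Of 5 measured genes for melanin and melanosome matrix, Dct and Pmel fell and 3 did not pass. Beside Slc45a2 these were Tspan10, a tetraspanin of pigment cells, with a difference of -0.13 (95% interval -0.38 to 0.12), and Cd63, a tetraspanin that sorts PMEL and is made by most cells, with 0.01 (-0.17 to 0.19). The level of Cd63 was 11.74 ± 0.08 in the mutant and 11.73 ± 0.10 in wild type (SD, n = 4). Tspan10, at 8.32 in the mutant and 8.45 in wild type, lay below the array medians in both genotypes. Whether it was above background could not be assessed.

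Of 16 measured genes for transport and biogenesis, 0 passed, with 13 below 0 and a median of -0.09, where 50.4% of all genes tested were below 0; with the replicate block 1 fell, Mlph. After Mlph and Mreg the largest difference was that of Ostm1, a lysosomal membrane protein whose loss in mice gives grey coats. It was 10.79 ± 0.08 in the mutant and 11.09 ± 0.12 in wild type (SD, n = 4), a difference of -0.30 (limma adjusted p = 0.255), and its groups did not overlap. The AP-3 subunit genes Ap3b1, Ap3d1 and Ap3m1, which serve a sorting route parallel to BLOC-1, differed by -0.02, -0.12 and -0.09. Over 12 measured lysosomal genes of most cells, 0 passed, 12 were below 0 and the median was -0.16; with the replicate block 1 fell, Naglu.

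**Figure D4:**
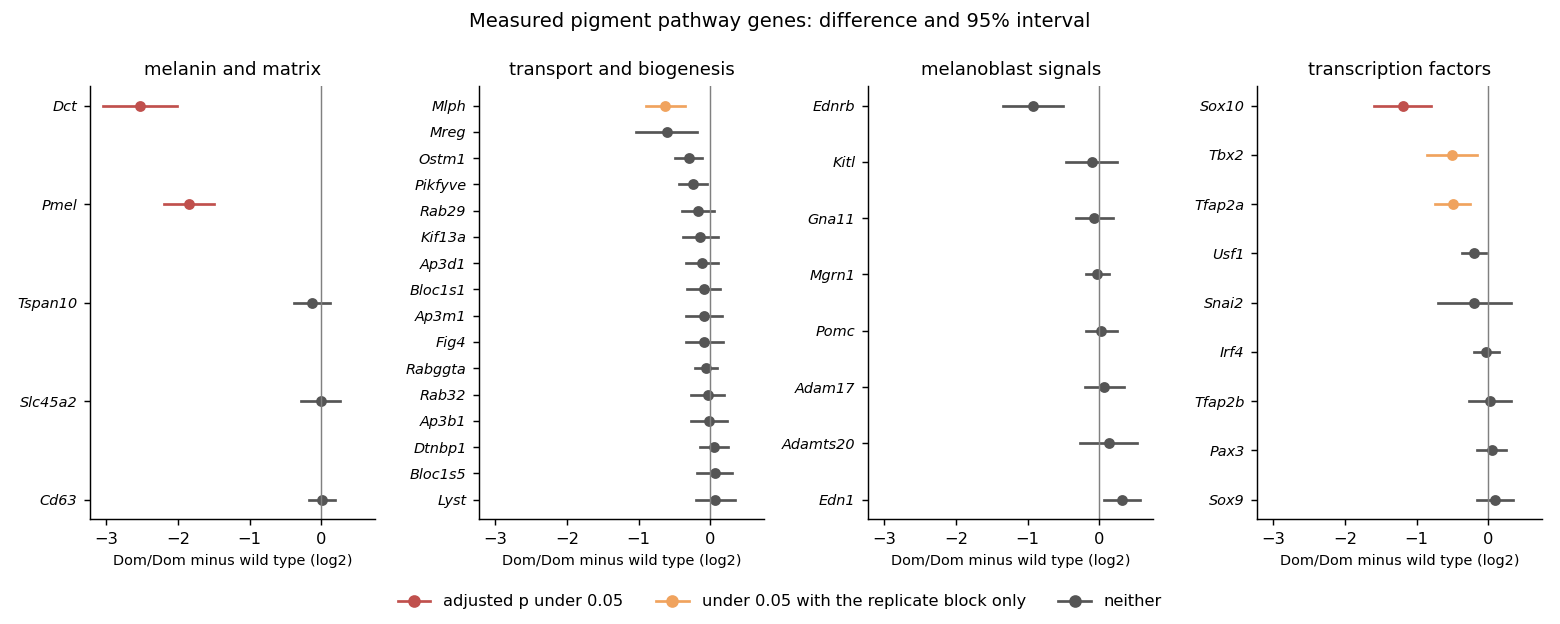
Difference between genotypes (x axis, Dom/Dom minus wild type, log2) with its 95% interval for the 38 measured genes of the 4 pathway lists (y axis); red marks genes past the threshold, orange those past it in the replicate-block fit alone, and grey the rest. The 3 red genes are Dct, Pmel and Sox10, and most transport and biogenesis genes lie within 0.2 of 0.

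Of 8 measured signal genes 0 passed, and their median difference was 0.00, with 4 above 0 and 4 below. Ednrb, the endothelin receptor of melanoblasts and enteric precursors, was at 12.05, 11.83, 11.79 and 11.91 on the mutant arrays, and at 12.48, 12.39, 13.16 and 13.25 on the others. The groups did not overlap, and the difference of -0.92 (95% interval -1.34 to -0.51) missed the threshold (limma adjusted p = 0.0718; 0.0644 with the replicate block). The call was gained in 4 other alternatives: without wild-type replicate 2, with array weights, with a block for replicates 1 and 2 against 3 and 4, and with arrays centred on their medians. The mean difference was -0.49 over pairs 1 and 2 and -1.35 over pairs 3 and 4. Edn1, an endothelin, differed by 0.32 (adjusted p = 0.494) and Adamts20, a matrix protease needed for melanoblast survival, by 0.13 (adjusted p = 1.00). The other 5 signal genes, Kitl among them, had smaller differences.

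Of 9 measured transcription factors of melanoblasts and their precursors 1 fell, Sox10 itself. Mutant arrays gave 9.98, 10.94, 10.52 and 10.55 and wild-type arrays 11.67, 11.46, 11.89 and 11.75, a difference of -1.20 (95% interval -1.59 to -0.80, limma adjusted p = 0.0168 and 0.0312 with the replicate block). When an array of replicate 3 or 4 was left out, of either genotype, that p rose to between 0.0607 and 0.0762. As the Dom allele is still transcribed, this is no check of the genotype labels. Tfap2a, which acts with MITF in melanocytes, had a difference of -0.50, with an adjusted p of 0.108 that became 0.0418 when blocked by replicate. For Tbx2 the difference was -0.51, and the limma adjusted p changed from 0.377 to 0.0269 in the same way. Pax3, a regulator of Mitf, differed by 0.05 (95% interval -0.15 to 0.25), and Usf1 by -0.20 (adjusted p = 0.571).

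The mean level of 10 measured neural crest markers ran from 11.35 to 11.49 over the Dom/Dom arrays and from 11.66 to 11.92 in wild type. Of the 10, Twist1 was at 8.63 and 8.54, near the array medians, which ran from 8.60 to 8.78, and 1 of them, Sox10, fell, or 3 with the replicate block, where Tfap2a and Cdh6 were added. Of 7 measured glial and Schwann cell precursor markers, 5 fell (Cdh19, Erbb3, Cnp, Gas7 and Adgrg6) and 2 did not pass. Over all genes tested 0.408% were called lower. With the replicate block, which lost Gas7, 4 of them fell, beside 1.05% of all genes called lower in that fit. Differences in this glial list ran from -4.25 to -0.04. The list's mean level ran from 9.55 to 9.82 in Dom/Dom against 10.68 to 11.22 in wild type. Mast cells share Kit and Mitf with melanoblasts, and 3 of their markers, Mcpt4, Cma1 and Fcer1a, had mean levels from 5.88 to 6.15 and from 5.86 to 5.97. Of mesodermal (6), smooth muscle (4), neuronal (5), epithelial (6), endothelial (1) and blood and macrophage markers (2), 0 passed; with the replicate block Prrx1 rose, and Pou4f1 and Krt8 fell. The mean differences of these lists were 0.30, 0.29, -0.39, -0.33, -0.03 and -0.37. The part of these cells in the falls of Dct and Pmel was not tested.

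Across the 8 arrays the levels most like that of Dct, by Pearson correlation among all genes, were those of Cdh19 (0.99), Pmel (0.99), Enc1 (0.98), Lama4 (0.98) and Sphk1 (0.98). For Pmel they were Dct (0.99), Enc1 (0.99), Cdh19 (0.98), Kctd12 (0.98) and Sphk1 (0.98). Cdh19 is a cadherin of Schwann cell precursors, Lama4 a laminin chain and Sphk1 a sphingosine kinase; of these genes Enc1, which encodes a kelch protein, did not pass the threshold itself (difference -0.36, limma adjusted p = 0.0998). These correlations are descriptions over arrays that differ in genotype, which sets most of their size. Sox10 ranked 17th for Dct (0.95) and 44th for Pmel (0.91), and Mlph 52nd and 16th (0.90 and 0.94).

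Within a genotype the likeness was another. When each array was expressed as its deviation from the mean of its genotype, the genes most like Dct were Wipi1, Entpd4, Traf5, Ercc4 and Trak2, with correlations from 0.98 to 0.99, and 0 of these 5 passed between genotypes. Those most like Pmel were Flrt2, Fstl1, Tgfbi, Fstl3 and D130079A08Rik (0.98 to 1.00), again with 0 past the threshold. On this scale Dct and Pmel correlated with each other at 0.85, and Pmel ranked 292nd among all genes for Dct. Mreg ranked 78th for Dct (0.93) and Kitl 151st (0.90), and Mlph ranked 564th for Pmel (0.71). Bloc1s1 correlated at -0.72 with Dct and at -0.88 with Pmel, and Dtnbp1 at -0.37 and -0.67. Sox10 ranked 1036th for Dct (0.65) and 2213th for Pmel (0.21).

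For some of the 8 genes, but not for Slc45a2, Mlph or Dtnbp1, the deviations split replicates 1 and 2 from 3 and 4 in both genotypes. Mlph and Dtnbp1 were split in this way in wild type alone. In both genotypes the arrays of replicates 3 and 4 lay above those of replicates 1 and 2 for Dct, Pmel, Mreg and Kitl, as they did for 11.3% of all genes, and below them for Bloc1s1, as for 17.8% of all genes. Wild-type replicate 2 was the lowest wild-type array for 6 of the 8 genes. The share of all genes for which it was lowest was not counted, so this is no trait of the 8. Dct was 0.58 below its genotype's mean in Dom/Dom replicate 1 and 0.52 below it in wild-type replicate 2. No label says what the replicate numbers stand for. The differences between genotypes within the pairs of replicates 1 and 2 averaged -2.54 for Dct and -1.86 for Pmel, and within those of replicates 3 and 4 -2.52 and -1.82.

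**Figure D5:**
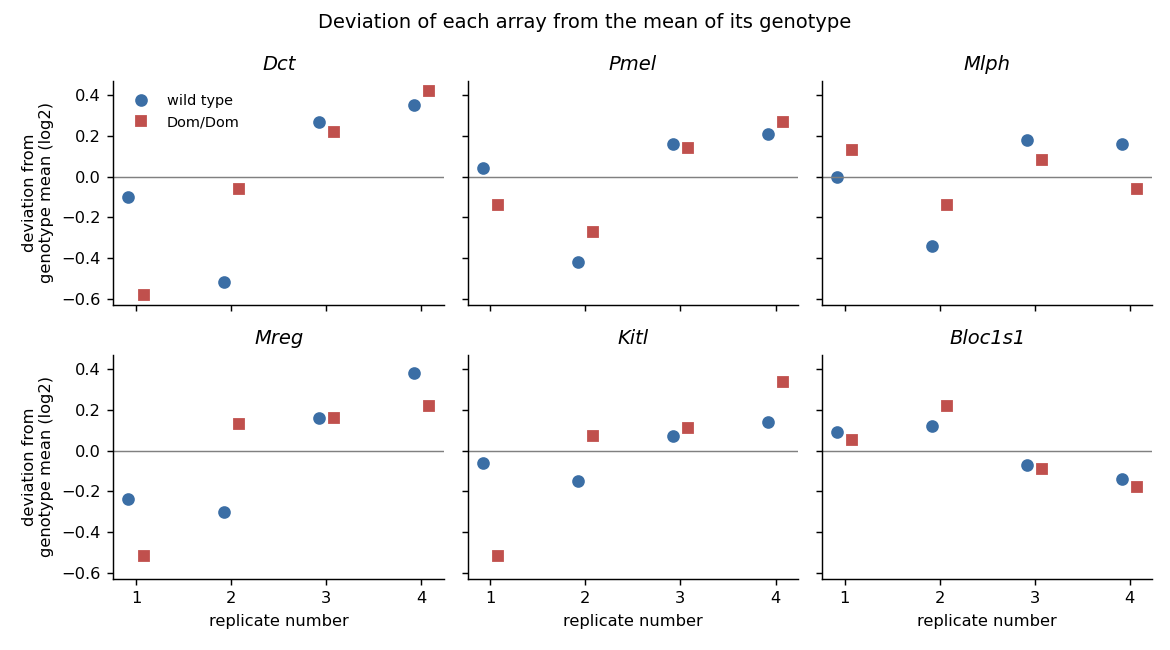
Deviation of each array from the mean of its genotype (y axis, log2) by replicate number (x axis) for 6 of the genes; blue circles are wild type and red squares Dom/Dom. For Dct, Pmel, Mreg and Kitl the arrays of replicates 3 and 4 are above those of 1 and 2 in both genotypes, and for Bloc1s1 below. Mlph has such a split in wild type alone.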

How the data were processed

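The deposited table holds log2 expression per probe set and array, made by the authors with RMA and Partek, per the submitters' processing notes; versions and settings are not given in the sources used here. Biotin-labelled probe came from 250 ng of RNA per array, per the labels' protocols. The table used held 16381 probe sets, of which the platform annotation names 1 gene symbol for 7416, several for 509 and none for 8456. The brightest probe set stood for each gene, which left 6855 genes, 97.8% of them on chromosomes 1 and 10 to 16; other genes were not analysed here. Array medians ran from 8.60 to 8.78 and correlations between arrays over all probe sets from 0.969 to 0.994. Precision is limited by there being 4 arrays per genotype.

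The comparison used limma 3.58.1 under R 4.3.3: a linear model with genotype alone, moderated by eBayes, two-sided and adjusted by Benjamini-Hochberg over all genes. The fit was tested on simulated data. Genotypes share replicate numbers, and deviations of same-numbered arrays from their genotype's mean correlated at 0.47, 0.58, 0.61 and 0.67, each above 0.1. Some arrays with different numbers also did. Dom/Dom replicate 3 correlated at 0.38 with wild-type replicate 4, and Dom/Dom replicate 4 at 0.21 with wild-type replicate 3. Dom/Dom replicate 2 correlated at 0.14 with wild-type replicate 1, and Dom/Dom replicate 1 at 0.11 with wild-type replicate 2. All other combinations were negative. The numbers were therefore treated as pairs, on the evidence of the data and not of any label; the fit without the block stayed the main one, and blocked values stand beside results whose call they change. Alternatives were the replicate block, a block for replicates 1 and 2 against 3 and 4, leaving out each array, array weights, another variance prior, a filter on low values, all probe sets, the mean of probe sets and 2 other normalizations. The 8 genes, the gene lists and the tests were chosen with earlier results of these data known. Named genes were the 8, genes of the pathway lists past the threshold, the 3 largest differences per list that did not pass, the 5 genes most like Dct and Pmel, Sox10 and markers past the threshold; Pax3, Naglu, the AP-3 genes, markers called with the block and the listed genes not analysed were named after their values were seen.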

Additional observations from a re-analysis of the deposited data

Results flagged for a closer look

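For the 8 genes and the other named genes of the lists, 46 sets of 4 arrays of a genotype were searched for an array far from the other 3. There were 3 such values, where chance flags about 1 in 20 sets, or 2.3 of these. Mreg was low in Dom/Dom replicate 1, at 8.80 where the other 3 mutant arrays had 9.45 to 9.54; without that array its difference was -0.43 (limma adjusted p = 0.390). Edn1 was high in Dom/Dom replicate 4, at 11.51 against 11.29 to 11.31, and the glial neuregulin receptor gene Erbb3 was low in Dom/Dom replicate 1, at 10.03 against 10.80 to 10.96.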

How the results depend on the processing

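Dct and Pmel kept their direction and their call in all 17 alternatives, with differences from -2.70 to -2.34 and from -1.98 to -1.75. Mlph, at -0.62 without a call, passed with the replicate block (-0.62, adjusted p = 0.0221), with the block for replicates 1 and 2 against 3 and 4 (-0.62, 0.0184), with array weights (-0.71, 0.00532) and with arrays centred on their medians (-0.69, 0.0375) or quantile-normalized (-0.69, 0.0474). Mreg passed with the block for replicates 1 and 2 against 3 and 4 alone (-0.60, adjusted p = 0.0482). Dtnbp1 changed sign with median-centred arrays (-0.009), and Sox10 lost its call when all probe sets were tested (-1.20, adjusted p = 0.147). In that fit more tests enter the adjustment, and the standard error of Sox10 was 0.194, against 0.178 in the main fit. Centring and quantile normalization moved the median of all genes to -0.06 and -0.05. The filter on low values removed Slc45a2.

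Of the 8 genes, 2 passed, and 4 with the block for replicates 1 and 2 against 3 and 4. Of the 38 pathway genes 3 passed, against 6 with the replicate block, 8 with that block of replicate sets, 8 with array weights and 5 with median-centred arrays. Over all genes 33 passed, against 103, 116 and 190 with the replicate block, the block of sets and array weights, and 4 when all probe sets were tested. The replicate block changed the call of no member but Mlph. Leaving out each array in turn, differences ran from -0.11 to 0.0614 for Slc45a2, -0.74 to -0.56 for Mlph, -0.71 to -0.43 for Mreg, -0.22 to 0.0701 for Kitl, -0.17 to -0.03 for Bloc1s1, -0.0008 to 0.0836 for Dtnbp1 and -1.34 to -1.02 for Sox10, and the counts from 2 to 3, 2 to 5 and 10 to 51; for Dct and Pmel they spanned the ranges above. The cause of these changes was not tested.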
